A study of Mus musculus with 6 samples.

Results

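The 9 genes described here encode the invariant CD3 chains of the T cell receptor (Cd3g, Cd3d, Cd3e and Cd247), the pre-T cell receptor alpha chain (Ptcra) and the kinases and adaptors that carry the first steps of its signal (Lck, Zap70, Lat and Lcp2). They were listed by name for their role, out of 21938 protein-coding genes of the annotation, when earlier results of these data were already known. All 9 were found by symbol. H3K4me3 was profiled by ChIP-seq in 2 mouse cell lines, with 2 H3K4me3 libraries and 1 input library per line and 6 samples in all. Scid.adh.2C2 is a T cell progenitor line that resembles the DN3 stage of the thymus, a subclone of tumor cells that grew without induction in the thymus of a mouse with the scid mutation of Prkdc. The other line is an Abelson virus-transformed B cell progenitor line, described in the methods as pre-B and named the pre-B line here. Each line is 1 transformed line and stands for its lineage only as far as such a line can, and neither was treated. For each line, 1 list was deposited in which peaks of both replicates were combined, so that there is 1 value per line, no spread between replicates and no test between the lines. The lists hold no read counts and the depth is unknown. A missing peak therefore means that no peak passed the study's thresholds, not that the mark is absent.

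H3K4me3 is a histone mark placed at the start sites of transcribed genes and of some genes held ready for transcription. The CD3 chains have signaling tails that bear tyrosines. They assemble with the antigen receptor or, before the alpha chain is made, with the pre-T cell receptor that drives thymocytes past the DN3 stage. Lck phosphorylates these tails, Zap70 binds to them and phosphorylates the membrane adaptor Lat and the cytosolic adaptor Lcp2 (SLP-76), and the complex built on both adaptors passes the signal on. In B cells the same steps are carried by related proteins, among them Cd79a, Syk and Blnk.

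The lists contained 15513 peaks in Scid.adh.2C2, with a median fold enrichment over background of 20.3 (range 2.08 to 56.6), and 19604 peaks in the pre-B line, with a median of 15.4 (range 2.14 to 42.1). Median peak widths were 1542 bp and 1590 bp. Because the lists differ in size and range, a fold enrichment was read within its own list, by its rank and by its percentile, where 100 is the highest. Of 8 T cell progenitor markers, 7 had a promoter peak in Scid.adh.2C2, all but Cd28, and 2 had one in the pre-B line (Tcf7 and Notch3). Of 8 B cell progenitor markers, 8 were marked in the pre-B line and 1 in Scid.adh.2C2 (Vpreb1). None of 6 myeloid markers was marked in either line, and 2 of 5 erythroid markers were marked in each.

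A gene was called marked when a peak overlapped the 2500 bp either side of any annotated transcription start site (TSS). All 9 genes were marked in Scid.adh.2C2, where 45.5% of all protein-coding genes were. In the pre-B line, 4 of the 9 were marked (Cd3d, Lck, Zap70 and Lat), where 48.2% of all genes were. The other 5, Cd3g, Cd3e, Cd247, Ptcra and Lcp2, were marked in Scid.adh.2C2 only, a pattern seen at 3.28% of all genes. None was marked in the pre-B line only (5.97% of all genes) or in neither line (48.5%), and the 4 genes marked in both compare with 42.2% of all genes.

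The count for the pre-B line depended on which start was asked about. With the more stringent question of whether the most upstream TSS itself lay inside a peak, which was asked after the data had been seen, 8 of the 9 genes passed in Scid.adh.2C2, all but Lck, where 37.9% of all genes did. Only Lat passed in the pre-B line, where 38.7% of all genes did. 7 genes passed in Scid.adh.2C2 only, compared with 4.47% of all genes. At Cd3d and Lck, a pre-B peak lay over other starts inside the gene, and at Lck further peaks lay upstream of it. At Zap70, the pre-B peak lay inside the gene and covered no annotated start. Of the 37 annotated TSSs of the 9 genes, 26 were inside a peak of Scid.adh.2C2 and 11 inside a peak of the pre-B line, and over all 93513 TSSs of protein-coding genes the shares were 36.0% and 38.0%.

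**Figure D1:**
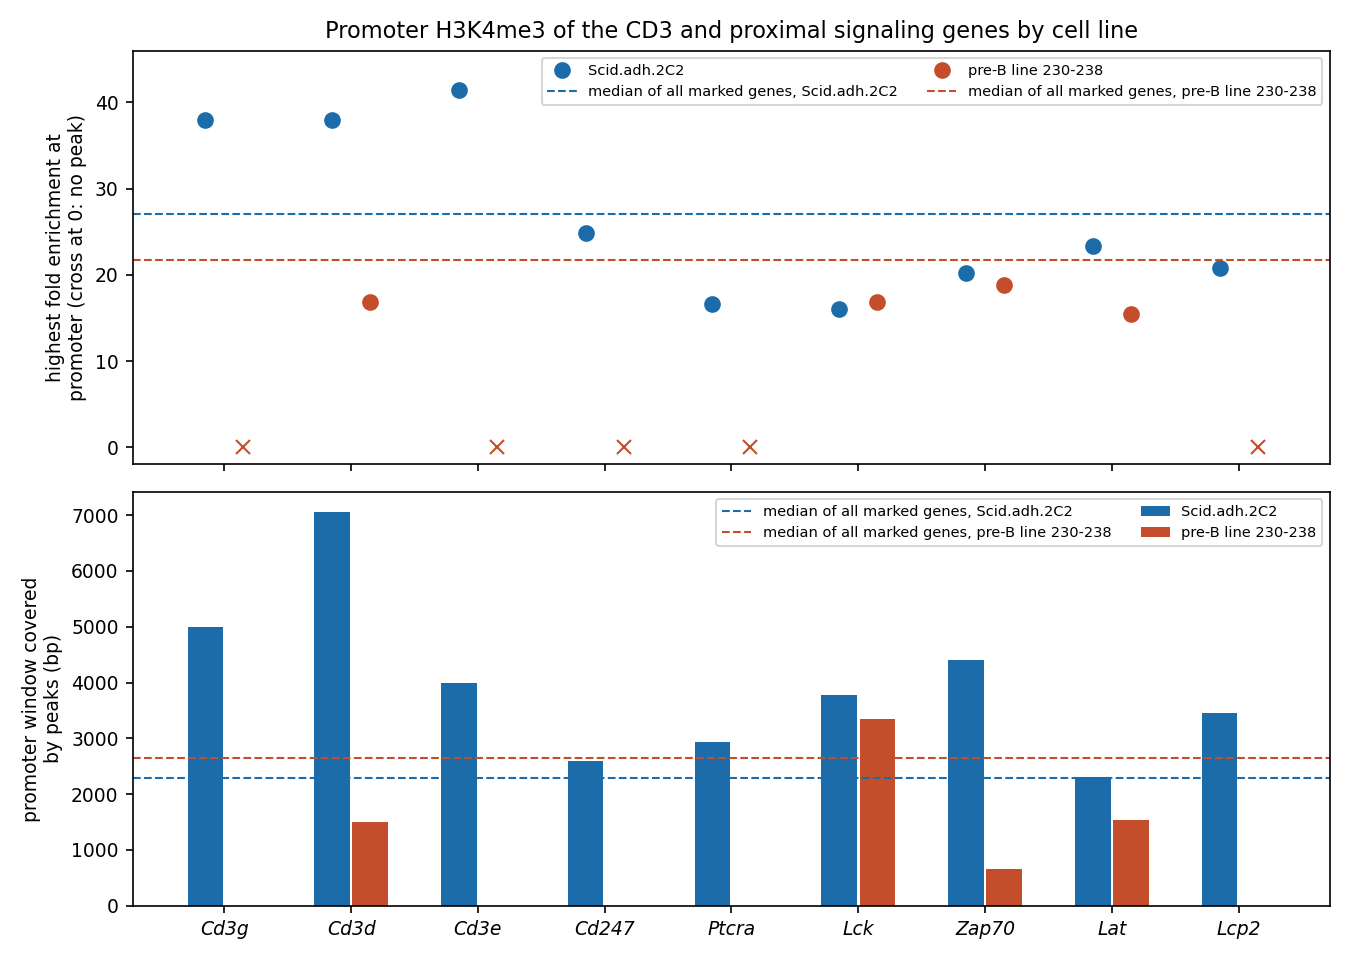
Highest fold enrichment of a promoter peak (upper panel, a cross at 0 where no peak was found) and base pairs of the promoter window covered by peaks (lower panel) for the 9 genes in Scid.adh.2C2 (blue) and the pre-B line (orange), with 1 combined list per line and dashed lines at the medians of all marked genes of each line. The CD3 genes on chromosome 9 stand at 38.0-fold and 41.5-fold in Scid.adh.2C2, above the median of 27.1, while the other 6 genes lie below it, and the 4 genes marked in the pre-B line lie below that line's median of 21.7.

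In fold enrichment, the 9 genes fell into a high and a moderate group in Scid.adh.2C2. The 3 genes of the Cd3 cluster were at 38.0-fold to 41.5-fold, and the other 6 between 16.0-fold (Lck) and 24.9-fold (Cd247). Their median was 23.4, beside 27.1 over all 9980 marked genes, so that most of the set lay under the typical marked promoter of the line. Ranked by −log10 q instead, the median percentile of the 9 genes was 76.3, beside 71.2 over all marked genes, so that this order depended on the measure. The 4 genes marked in the pre-B line lay between 15.5-fold (Lat) and 18.8-fold (Zap70), with a median of 16.8 beside 21.7 over 10570 marked genes.

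In marked length, all 9 genes lay above the median of all marked genes of Scid.adh.2C2 with this window, Lat only just. Peaks covered a median of 3770 bp of the promoter windows of the 9 genes in Scid.adh.2C2, beside 2294 bp over all marked genes. The gap depended on the window: with 1000 bp either side of a start the medians were 2008 bp and 1887 bp, and with 2500 bp around the most upstream start alone 2925 bp and 2240 bp. The median of the 4 genes marked in the pre-B line was 1518 bp, beside 2638 bp. Genes with several separated starts have longer windows, which adds to the covered length of Cd3d, Lck and Zap70. For the 4 genes marked in both lines, the covered length in Scid.adh.2C2 was 4.72 times that in the pre-B line at Cd3d, 6.71 times at Zap70, 1.5 times at Lat and 1.13 times at Lck. The median of this ratio over 9261 genes marked in both lines was 0.898.

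The CD3 gamma, delta and epsilon chains are encoded side by side on chromosome 9 (GRCm38). Cd3g (ENSMUSG00000002033, chr9:44969572-44980431, minus strand) and Cd3d (ENSMUSG00000032094, chr9:44981786-44987339, plus strand) are transcribed away from each other from starts 1355 bp apart. Cd3e (ENSMUSG00000032093, chr9:44998740-45009627, minus strand) faces Cd3d, with 11400 bp between the gene bodies and 27841 bp between their upstream starts. The 250 bases before the start of each of the 3 genes are given because these promoters carried the highest enrichment of the set, with no peak over these starts in the pre-B line. Sequences are from RefSeq (GRCm38.p6), in the direction of transcription. Capitals mark the letters of 5 motif families on either strand. An E-box was taken as CAGCTG and, in its other form, as CAGGTG. Motifs of RUNX factors were searched for as TGTGGT and, in a less common form, as TGCGGT. Those of ETS factors were read as AGGAAG and, where a CpG is included, as CGGAAG. The letters used for GATA factors were AGATAA and, with a different first base, TGATAA. For TCF factors the single string CTTTGA was used.
Cd3g, chr9:44980432-44980681, minus strand: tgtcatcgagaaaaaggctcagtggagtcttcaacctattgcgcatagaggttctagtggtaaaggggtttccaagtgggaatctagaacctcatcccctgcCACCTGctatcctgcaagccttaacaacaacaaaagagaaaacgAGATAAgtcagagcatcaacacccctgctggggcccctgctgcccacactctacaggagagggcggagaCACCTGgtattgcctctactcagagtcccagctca
Cd3d, chr9:44981536-44981785, plus strand: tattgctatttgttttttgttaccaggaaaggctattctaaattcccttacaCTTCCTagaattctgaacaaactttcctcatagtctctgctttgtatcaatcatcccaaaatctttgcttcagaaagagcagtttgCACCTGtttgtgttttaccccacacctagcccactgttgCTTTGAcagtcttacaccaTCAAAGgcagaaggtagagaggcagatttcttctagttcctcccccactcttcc
Cd3e, chr9:45009612-45009861, minus strand: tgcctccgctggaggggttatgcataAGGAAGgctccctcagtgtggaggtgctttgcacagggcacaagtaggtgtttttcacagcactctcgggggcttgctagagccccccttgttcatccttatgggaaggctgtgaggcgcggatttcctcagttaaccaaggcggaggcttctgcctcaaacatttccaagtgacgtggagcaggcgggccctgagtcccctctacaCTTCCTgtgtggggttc

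In Scid.adh.2C2, the starts of Cd3g and Cd3d lay under 1 peak, chr9:44977839-44983510. It was 5672 bp wide, at least as wide as 99.6% of the peaks of the list. It had a fold enrichment of 38.0 (rank 529 of 15513, percentile 96.6) and a −log10 q of 208. The list does not divide this peak between the genes, so that both carry the same value. Its summit was 178 bp inside Cd3d, in an intron. The peak spanned the 5001 bp of the window around the upstream Cd3g start from end to end. Cd3e had a peak of its own, chr9:45008141-45012292, 4152 bp wide, with the highest enrichment of the set, 41.5-fold (rank 183, percentile 98.8). Its summit lay 278 bp downstream of the most upstream start, in a coding exon, and the peak also covered the start of the gene model Gm48720.

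None of these 3 upstream starts was overlapped by a peak of the pre-B line. Cd3g had no peak in its promoter or gene body. At Cd3d, a peak of 1048 bp (chr9:44985665-44986712) had a fold enrichment of 16.8 (rank 8768 of 19604, percentile 55.3), 4256 bp downstream of the start. It covered the starts of the short transcripts at 44985823 and 44985952 near the 3′ end of the gene, and these starts alone made Cd3d a marked gene in this line. A further peak of 447 bp and 12.9-fold lay in the UTR exon at the gene's end. The internal site was also marked in Scid.adh.2C2, by a peak of 2837 bp and 14.1-fold (percentile 34.1) whose summit was 14 bp from that of the pre-B line. Thus the promoters of Cd3d differed between the lists, while the internal site was present in both. At Cd3e, the only pre-B peak (chr9:44997852-44998921, 10.0-fold, percentile 26.6) covered 182 bp of the gene's 3′ end, 10706 bp from the upstream start. It lay 3466 bp from the nearest annotated Cd3e start, outside the 2500 bp window, and its IDR score of 798 was the only one under 1000 among the 9 peaks at the set in this line.

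**Figure D2:**
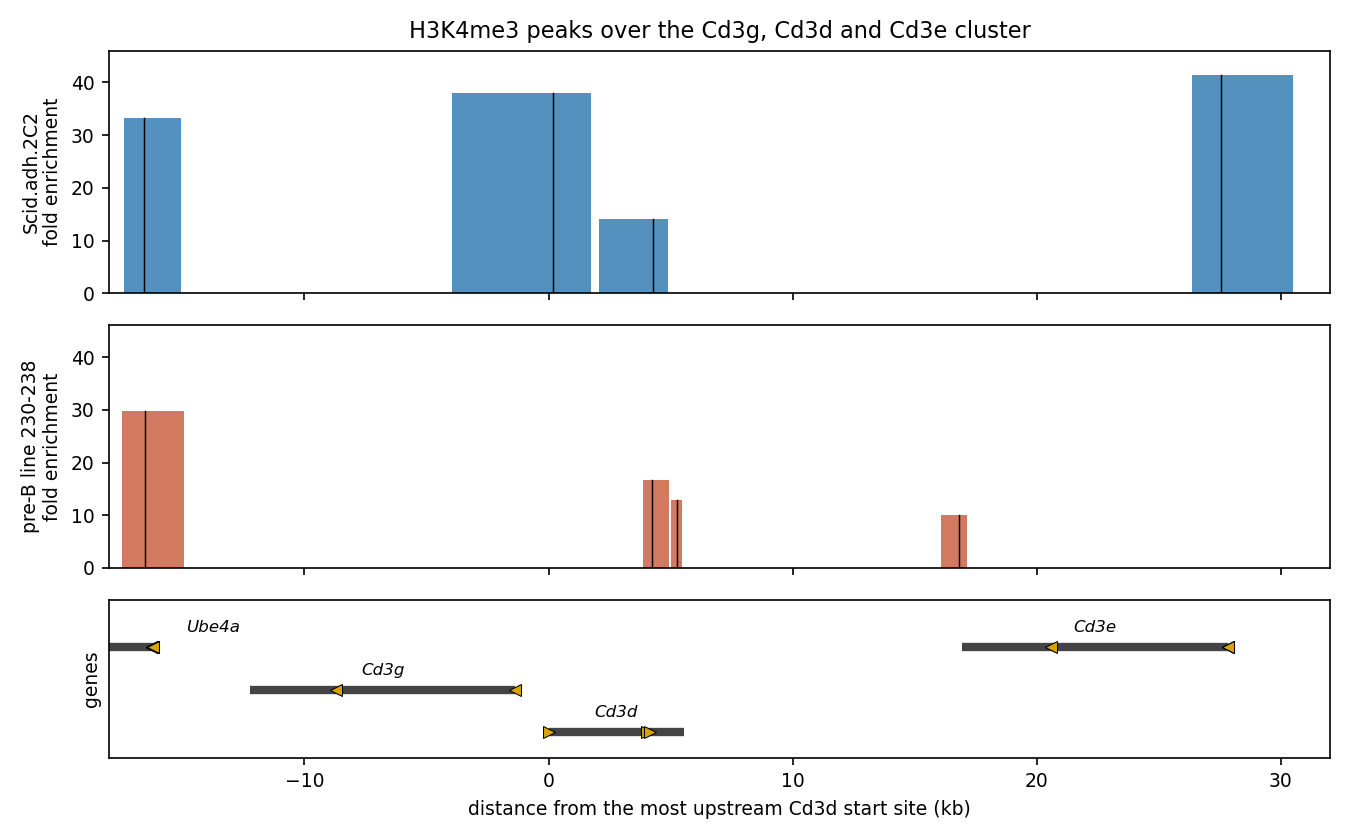
Peaks of Scid.adh.2C2 (blue, top) and the pre-B line (orange, middle) over the Cd3 gene cluster, each box giving a peak's extent (distance from the most upstream Cd3d start, in kb) and fold enrichment, with a black line at its summit, and gene bodies (bars) with annotated starts (triangles pointing in the direction of transcription) in the lower panel. The 38.0-fold and 41.5-fold peaks over the upstream starts appear in Scid.adh.2C2, the site at the 3′ end of Cd3d and the peak of the neighbouring gene Ube4a in both lines, and the 10.0-fold peak at the 3′ end of Cd3e in the pre-B line.

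Cd247 (ENSMUSG00000005763, chr1:165788681-165877277, plus strand) encodes the zeta chain, which carries more signaling motifs than the other CD3 chains and also serves receptors of NK cells. In Scid.adh.2C2, a peak of 2600 bp over its 4 upstream starts had a fold enrichment of 24.9 (rank 5556, percentile 64.2), with a summit 976 bp into the gene. By −log10 q, which was 173, the same peak stood at percentile 94.8. The nearest peak of the pre-B line was 7084 bp upstream of the first start. Cd247 was also the gene with the most peaks inside its body, 5 in introns of Scid.adh.2C2 apart from the promoter peak. Of these, 4 had low enrichment, 5.29-fold to 8.76-fold. The remaining one, 2705 bp wide with its summit 56342 bp downstream of the start, had 18.1-fold enrichment and overlapped a pre-B peak of 1559 bp and 15.3-fold (percentile 49.6) whose summit was 289 bp away. The starts of the gene models Gm32999 and, in Scid.adh.2C2, Gm37856 lay under these intronic peaks. This was the only pre-B peak over Cd247.

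Ptcra (ENSMUSG00000036858, chr17:46755663-46763712, minus strand) encodes the pre-T cell receptor alpha chain, which pairs with the beta chain at the DN3 stage and is a classical marker of it. Its promoter is shown because it held 3 CAGCTG E-boxes, the most of this form in the set, of which the capitals mark those before the start.
Ptcra, chr17:46763713-46763962, minus strand: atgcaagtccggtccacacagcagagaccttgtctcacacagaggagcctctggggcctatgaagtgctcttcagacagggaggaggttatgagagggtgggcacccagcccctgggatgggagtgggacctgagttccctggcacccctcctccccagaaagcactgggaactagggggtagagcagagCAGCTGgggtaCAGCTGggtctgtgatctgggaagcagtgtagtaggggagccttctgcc
In Scid.adh.2C2, the single annotated start lay under a peak of 2958 bp with a fold enrichment of 16.6 (rank 9236, percentile 40.5) and a −log10 q of 59.4. The summit was 554 bp downstream of the start, in an intron. This was a wide peak, at least as wide as 90.0% of the list, of low height. Only Lck had a lower fold enrichment in the set, and by −log10 q Ptcra was the lowest (percentile 37.8, beside 54.4 for Lck). The pre-B line had no peak over the gene, and the nearest one was 8142 bp away.

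Lck (ENSMUSG00000000409, chr4:129548344-129573641, minus strand) encodes the Src family kinase that phosphorylates the CD3 tails. It has a proximal promoter, known for its use in thymocytes, and a distal promoter, used also in mature T cells, 15269 bp upstream. The 250 bases before each are shown because the lists treated them differently.
Lck proximal, chr4:129558373-129558622, minus strand: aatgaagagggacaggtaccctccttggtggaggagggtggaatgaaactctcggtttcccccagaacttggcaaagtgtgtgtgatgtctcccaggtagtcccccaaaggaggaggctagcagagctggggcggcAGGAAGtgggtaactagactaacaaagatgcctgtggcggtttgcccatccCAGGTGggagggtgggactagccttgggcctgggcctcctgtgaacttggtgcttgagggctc
Lck distal, chr4:129573642-129573891, minus strand: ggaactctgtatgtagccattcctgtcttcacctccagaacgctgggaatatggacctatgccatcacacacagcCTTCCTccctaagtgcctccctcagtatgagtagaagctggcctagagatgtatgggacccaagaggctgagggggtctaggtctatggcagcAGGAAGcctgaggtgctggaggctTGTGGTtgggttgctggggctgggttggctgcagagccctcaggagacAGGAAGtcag
Both lines carried a peak over the proximal starts at 129558372 and 129558391. It was 3322 bp wide with 16.0-fold enrichment in Scid.adh.2C2 (rank 9477, percentile 38.9) and 2733 bp wide with 16.8-fold enrichment in the pre-B line (rank 8752, percentile 55.4), and the summits were 244 bp apart. Lck was thus the member with the lowest enrichment in the T line and the one whose covered lengths were the most alike, 3770 bp and 3351 bp. The start of the microRNA gene Mir8119 lay under the peak in both lines. The distal start at 129573641 was not inside a peak of either line. The nearest peaks lay upstream of it, 1368 bp away in Scid.adh.2C2 (448 bp wide, 10.8-fold) and 1407 bp away in the pre-B line (346 bp wide, 7.82-fold). A further small pre-B peak of 272 bp and 13.1-fold lay 1928 bp away, just inside the window. The neighbouring gene Fam167b lies on the same side. The 10.8-fold peak and both small pre-B peaks also fell in its promoter window.

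Zap70 (ENSMUSG00000026117, chr1:36761798-36782818, plus strand) encodes the Syk family kinase that binds to phosphorylated CD3 tails. Its upstream promoter and the internal site marked in the pre-B line are shown side by side, the latter as 201 bases centred on the pre-B summit.
Zap70 upstream, chr1:36761548-36761797, plus strand: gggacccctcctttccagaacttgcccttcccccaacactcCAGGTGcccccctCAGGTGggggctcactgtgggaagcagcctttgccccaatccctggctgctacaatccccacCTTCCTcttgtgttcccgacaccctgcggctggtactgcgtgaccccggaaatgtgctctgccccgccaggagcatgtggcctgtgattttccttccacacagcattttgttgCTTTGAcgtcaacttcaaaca
Zap70 internal, chr1:36767485-36767685, plus strand: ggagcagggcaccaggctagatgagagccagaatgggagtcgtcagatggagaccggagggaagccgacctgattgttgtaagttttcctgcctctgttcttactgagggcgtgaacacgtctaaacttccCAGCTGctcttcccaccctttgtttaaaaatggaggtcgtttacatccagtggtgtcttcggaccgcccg
In Scid.adh.2C2, 3 peaks marked the first part of the gene. The one over the upstream start was 2015 bp wide, with 20.2-fold enrichment (rank 7819, percentile 49.6) and a summit 170 bp into the gene. The next, 1231 bp wide with 8.98-fold enrichment, covered the protein-coding start at 36766934 and the start of the gene model Gm18828. The last, of 1150 bp and 10.2-fold, lay in the intron behind it. The upstream start was, in the pre-B line, 5544 bp from the nearest peak. The single peak of that line, chr1:36767342-36767996, was 655 bp wide with 18.8-fold enrichment (rank 7186, percentile 63.3), the highest value of the set in the pre-B line. It contained no annotated start and began 408 bp downstream of the one at 36766934. Its summit was 54 bp from that of the last Scid.adh.2C2 peak, so that the marked site of the pre-B line was one that, in Scid.adh.2C2, had lower enrichment (percentile 23.8) than the upstream start. Only 1.9% of the genes marked in the pre-B line had a shorter covered length than Zap70, while 95.1% of those in Scid.adh.2C2 did.

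**Figure D3:**
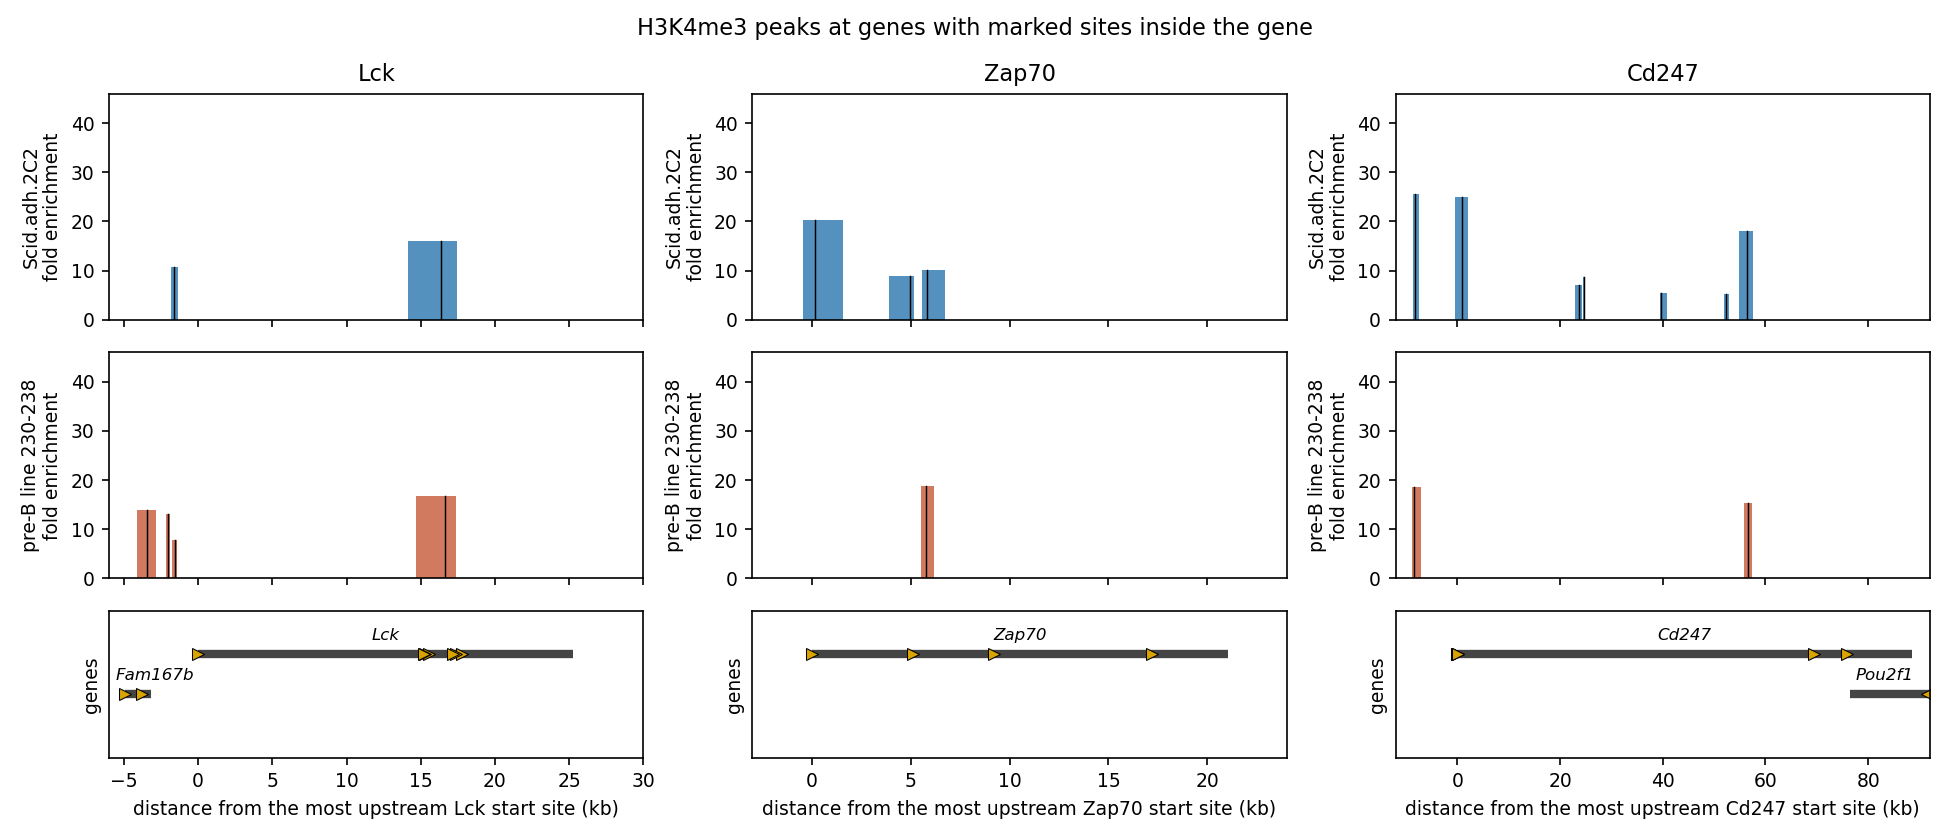
Peaks of Scid.adh.2C2 (blue, top) and the pre-B line (orange, middle) at Lck, Zap70 and Cd247, drawn in the direction of transcription with distance from the most upstream annotated start in kb, box height as fold enrichment, a black line at each summit, and gene bodies with annotated starts (triangles) at the bottom. The proximal Lck starts lay inside a peak in both lines and the distal start in neither, the upstream starts of Zap70 and Cd247 lay inside a peak in Scid.adh.2C2 only, and all 3 genes had a site downstream of the upstream start with a peak in both lines.

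Lat (ENSMUSG00000030742, chr7:126363824-126369570, minus strand) encodes the transmembrane adaptor that Zap70 phosphorylates. Its promoter is shown as the only upstream promoter of the set inside a peak of both lines.
Lat, chr7:126369569-126369818, minus strand: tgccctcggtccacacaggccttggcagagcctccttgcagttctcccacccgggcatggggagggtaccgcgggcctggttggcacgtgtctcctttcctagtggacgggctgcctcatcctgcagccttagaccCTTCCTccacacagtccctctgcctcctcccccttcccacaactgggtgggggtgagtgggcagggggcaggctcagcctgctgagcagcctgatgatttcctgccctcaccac
The peak was 2311 bp wide with 23.4-fold enrichment in Scid.adh.2C2 (rank 6328, percentile 59.2) and 1540 bp wide with 15.5-fold enrichment in the pre-B line (rank 9720, percentile 50.4). The summits were 6 bp apart, at 292 bp and 298 bp downstream of the upstream start, in a UTR exon. The edges of the peaks in front of the start nearly coincided, at 777 bp and 753 bp upstream, and the difference in width lay inside the gene, where the peaks ended 1533 bp and 786 bp downstream. The same Scid.adh.2C2 peak also covered the start of the microRNA gene Mir7058 and fell in the promoter window of the neighbour Spns1.

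Lcp2 (ENSMUSG00000002699, chr11:34046920-34092295, plus strand) encodes SLP-76, the adaptor that joins Lat to phospholipase C-gamma. In Scid.adh.2C2, a peak of 3859 bp covered both upstream starts and reached 3162 bp into the gene, with 20.8-fold enrichment (rank 7603, percentile 51.0) and a −log10 q of 134 (percentile 76.3). It was at least as wide as 96.8% of the list. A peak of 368 bp and 5.12-fold followed directly behind it, and another of 797 bp and 7.4-fold had its summit 17053 bp downstream of the start. In the pre-B line there was no peak over the gene, and the nearest to its upstream start was 37944 bp away. No other member had its upstream start so far from a peak of that line.

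Over all 9 genes, 19 Scid.adh.2C2 peaks lay at promoters (12) or in the gene bodies alone (7), with the peak shared by Cd3g and Cd3d counted once, and 9 peaks did so in the pre-B line (7 and 2). A partner in the other list was found for 6 of the 19 Scid.adh.2C2 peaks, whereas 74.4% of that whole list had one. For the pre-B line, 6 of the 9 peaks had a partner, close to the 60.7% of its whole list. In the 6 pairs the summits were 6 to 289 bp apart, and the median over 11549 overlapping peaks was 57 bp. The partners were the internal Cd3d site, the intronic Cd247 site, the Lck proximal promoter and the small peak upstream of Lck, the internal Zap70 site and the Lat promoter.

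The nearest protein-coding gene on each side of the members or their cluster was then looked up, a comparison chosen after the values had been seen. Genes overlapping the member were passed over, among them Pou2f1, which overlaps the 3′ end of Cd247. Of the 14 genes looked up, 10 were marked in Scid.adh.2C2, 11 in the pre-B line and 10 in both. The shares over all genes were 45.5%, 48.2% and 42.2%. These counts are not independent of the members. In Scid.adh.2C2, the highest peak of Spns1 was the Lat peak, and that of Fam167b was the small peak upstream of Lck. Ube4a, beside Cd3g, stood at 33.3-fold in Scid.adh.2C2 and 29.7-fold in the pre-B line, Hdac1, beside Lck, at 33.9-fold and 22.0-fold, and Cnpy3, beside Ptcra, at 28.4-fold and 33.4-fold. Within the 2 lists, the ranks were 1657 and 596 for Ube4a, 1457 and 4623 for Hdac1, and 3821 and 140 for Cnpy3. Mpzl2, beside Cd3e, was marked in the pre-B line only (14.3-fold), and Dusp27, Kcnip1 and Foxi1 in neither line. At the Cd3 cluster, Ptcra and Cd247, genes marked in Scid.adh.2C2 only thus lay next to a gene marked in both lines. Beside Cd247 this was Creg1 (22.3-fold and 26.1-fold). For Lcp2, also marked in Scid.adh.2C2 only, the neighbours were Kcnip1 and Foxi1.

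The promoters of the set were poor in CpG dinucleotides. RefSeq listed 12 starts for the 9 genes, and the observed over expected CpG ratio was computed over 250 bases before and 50 after each. The 9 starts inside a Scid.adh.2C2 peak had ratios from 0 (Lcp2, no CpG in 300 bases) to 0.341 (upstream Zap70), with a median of 0.21. Ptcra (0.0357) and Cd3d (0.0774) had 1 CpG each, and Cd3e (0.333) had 8. Over all 9638 RefSeq starts inside a Scid.adh.2C2 peak the median was 0.804, and 6.69% of them had a ratio of 0.341 or less. Starts inside a peak of both lines had a median of 0.812, those inside a peak of Scid.adh.2C2 only 0.735, and those in neither list 0.243, with an upper quartile of 0.441. All 9 marked starts of the set thus had ratios under the upper quartile of unmarked starts. The internal Zap70 site marked in both lines had a ratio of 0.624 with 9 CpGs in 201 bases, and the internal Cd247 site had 0.56 with 10, while the internal Cd3d site had 0.141. These windows differ in length from the promoter windows and were chosen by their peaks.

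**Figure D4:**
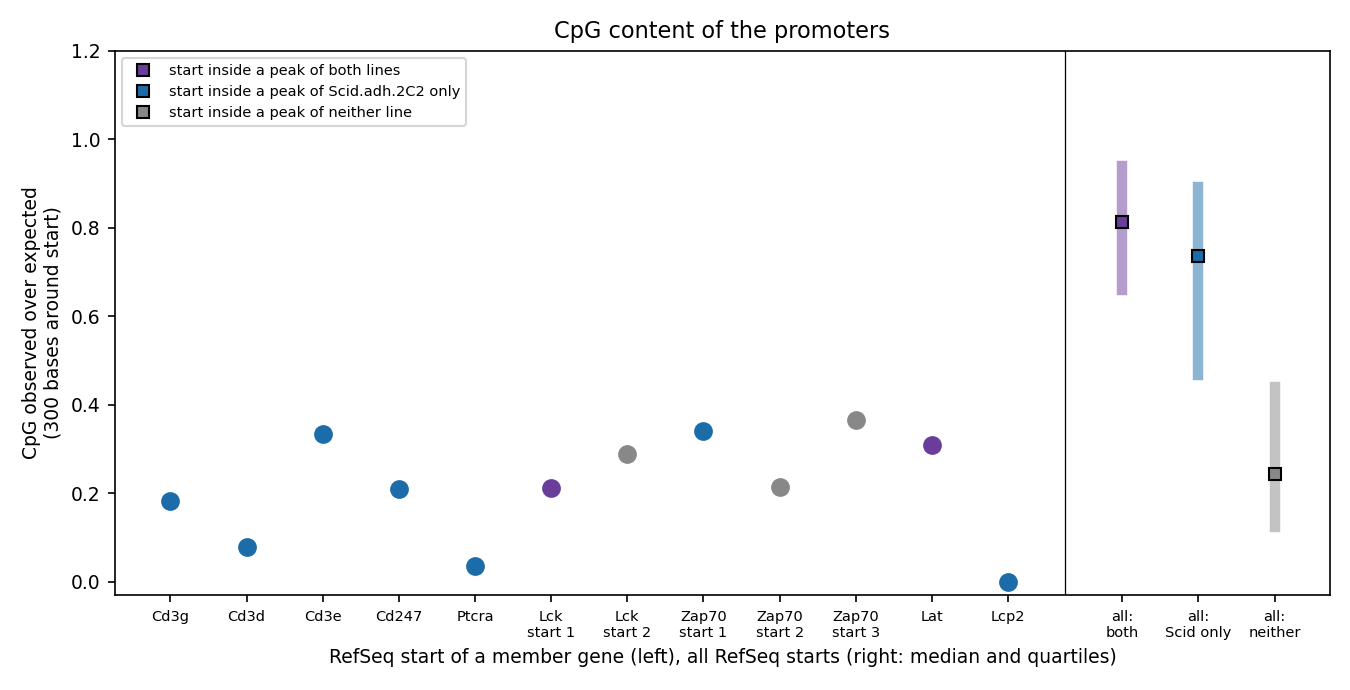
Observed over expected CpG ratio in the 300 bases around each RefSeq start of the 9 genes (circles; Lck start 1 is the proximal and start 2 the distal one, and Zap70 start 1 is the upstream one), coloured by whether the start lay inside a peak of both lines, of Scid.adh.2C2 only or of neither, beside the median (square) and quartiles (bar) of all RefSeq starts of each class. All 12 starts lie at or under 0.366, while the medians of all starts are 0.812 for both lines and 0.735 for Scid.adh.2C2 only.

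In the same windows, an E-box of either form occurred in 10 of the 12 member promoters, beside 33.0% of all 32817 RefSeq promoters. Cd3g had 3, of which CAGGTG made up 2, Ptcra had 3, and the windows without one were those of Lat and of the second Zap70 start. ETS letters occurred in 9 of 12 (46.5% of all promoters), TCF letters in 4 of 12 (16.0%), RUNX letters in 3 of 12 (22.4%) and GATA letters in 2 of 12 (18.6%). The RUNX matches were in the distal Lck, second Zap70 and Lat windows, and the GATA matches in Cd3g and Lcp2. CAGCTG reads the same on both strands and was counted once, and none of the motif strings contains another. Binding of a factor was not measured.

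Of 45 other genes of T cell receptor signaling, 28 were marked in the pre-B line (62.2%) and 31 in Scid.adh.2C2 (68.9%). Of these, 24 were marked in both (53.3%, beside 42.2% of all genes). Another 7 were marked in Scid.adh.2C2 only (15.6%, beside 3.28%), 4 in the pre-B line only (8.89%, beside 5.97%) and 10 in neither (22.2%, beside 48.5%). Those marked in Scid.adh.2C2 only with the highest enrichment were Cd2, an adhesion receptor (30.4-fold), Themis, a regulator of signaling in thymocytes (27.2), Pag1, a membrane adaptor for Csk (25.3), Nfatc2, a calcium-regulated transcription factor (22.1), and Ubash3a, a negative regulator of receptor signaling (21.7). The 4 marked in the pre-B line only were Cd6 (19.9-fold), Prkcq (14.6), Sh2d2a (13.8) and Cd5 (9.5), of which Cd5 and Cd6 are related surface receptors of T cells and some B cells. The coreceptor genes Cd4, Cd8a and Cd8b1 were marked in neither line. General signaling genes such as Csk (32.7-fold and 23.0-fold), Cbl (32.1 and 17.7) and Grb2 (25.1 and 25.9) were marked in both. Within their lists these peaks stood at percentiles 87.9 and 80.0 (Csk), 86.2 and 58.9 (Cbl) and 64.4 and 89.5 (Grb2).

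Each of 7 T cell signaling genes was set beside its counterpart in B cell receptor signaling. These genes are not a separate set. Plcg1, Grap2 and the counterpart Grb2 were also counted among the other signaling genes above, and the remaining T cell genes are members. All 7 of the T cell genes were marked in Scid.adh.2C2, and 5 of them also in the pre-B line, whereas 1 of the 7 counterparts was marked in Scid.adh.2C2 but all 7 in the pre-B line. Cd3e (41.5-fold in Scid.adh.2C2, none in the pre-B line) and Cd79a, a signaling chain of the B cell receptor (none and 27.9-fold), were marked in opposite lines. The adaptors Lcp2 (20.8 and none) and Blnk (none and 20.9) were as well. The counterparts Syk of Zap70 (17.2-fold), Lat2 of Lat (13.9), Blk of Lck (14.9) and Plcg2 of Plcg1 (23.6) were marked in the pre-B line only, but Zap70, Lat, Lck and Plcg1 (26.3-fold and 13.4-fold) were marked in both lines. Grap2 (23.0-fold and 20.7-fold) and its counterpart Grb2 were both marked in both lines. Within the lists, Plcg1 stood at percentiles 68.5 and 42.2, and Grap2 at 58.0 and 71.0. By count, 2 of the 7 T cell genes were marked in their own line only, and 6 of the 7 counterparts in theirs. This difference was not tested. Among all protein-coding genes, 3.28% had a mark confined to Scid.adh.2C2 and 5.97% one confined to the pre-B line. The T cell count depended on the promoter definition, as the pre-B peak of Zap70 covered no annotated start. With the outermost TSS alone, Zap70 lost its pre-B mark, while Lck and Lat kept theirs. Lck kept it only through the small peaks upstream of its distal start, which itself lay in no peak. Plcg1, Grap2 and the counterparts were not examined in this way.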

How the data were processed

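H3K4me3 ChIP-seq libraries of Scid.adh.2C2 cells and of the Abelson-transformed pre-B line, 2 per line with 1 input each, were grouped by the sample labels. The authors trimmed reads with Trim Galore (0.6.7), mapped them to mm10 (GRCm38) with Bowtie2 (2.4.4), called narrow peaks with MACS2 (2.2.7.1) at a q-value of 0.05 against input, and kept peaks passing an irreproducible discovery rate (IDR) of 0.05 between replicates. Signal tracks made with deepTools were not used here. Each deposited list gives, per peak, the IDR-based score, the fold enrichment (a ratio over background), the −log10 p-value and the −log10 q-value. These were used unchanged and only within a list. Both replicates are combined and no counts are given, so that the depth and its precision are unknown and no test was made.

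TSSs and gene bodies were from GENCODE vM21 on GRCm38. A peak overlapping the window of 2500 bp either side of a TSS by 1 bp marked the gene, and a peak in 2 windows counted for both genes. Sequences were from RefSeq (GRCm38.p6). Motifs were searched on both strands. The expected number of CpGs was the product of C and G counts divided by length. Percentiles are the share of a list with values at or below that of the peak, the peak itself included.

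The members and gene lists were chosen with earlier results of these data known. The text names all members, genes with a start under a member's promoter peak or holding it, the paired T and B cell genes and, of the other signaling genes, up to 5 with the highest fold marked in either line only. Other genes were chosen after their values were seen. Alternatives were windows of 1000 and 5000 bp, the most upstream TSS, protein-coding transcripts, the summit inside the window, 10-fold enrichment, an IDR score of 1000, equal list sizes, ranking by −log10 q or p, and joined peaks. Requiring a TSS inside a peak, and the comparison of covered lengths with all genes under other windows, were added after the data were seen. The counting was tested on simulated peaks. Protein sequence features were not analysed here, and 1 gene of the signaling lists is not reported here, with its pair. Python 3.11.15, numpy 2.4.6, pandas 2.3.3 and matplotlib 3.10.9 were used.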

Additional observations from a re-analysis of the deposited data

How the results depend on the processing

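All 9 genes stayed marked in Scid.adh.2C2 under every alternative window, transcript set, summit rule, enrichment, IDR and list-size setting, except that 8 passed when the most upstream TSS had to lie inside a peak. In the pre-B line the count of 4 fell to 2 (Lck and Lat) when a single TSS, the outermost, was kept for each gene, and to 1 (Lat) when that TSS had to lie inside a peak. The count marked in both lines moved in the same way, from 4 to 2 and to 1. With 5000 bp windows 5 genes were marked in the pre-B line, as Cd3e was gained, and with any annotated TSS inside a peak 3 were. The median percentile of the marked members rose from 59.2 to 76.3 in Scid.adh.2C2 when peaks were ranked by −log10 q or by −log10 p, and changed from 55.3 to 53.1 in the pre-B line under both. The median covered length in Scid.adh.2C2 was 2008 bp with 1000 bp windows, 4152 bp with 5000 bp windows and 4152 bp as the whole width of peaks joined within 1000 bp, beside 3770 bp. In the pre-B line it was 1374 bp, 1495 bp and 1557 bp, beside 1518 bp. With 1000 bp or 5000 bp windows, the summit rule or IDR scores of 1000, the medians of fold enrichment stayed at 23.4 and 16.8. With the outermost TSS alone, an alternative added after the data were seen, the median of the pre-B line was 14.3 over 2 genes, and that of Scid.adh.2C2 was 23.4. No paired analysis was possible because the lists hold no value per replicate, and for the same reason no replicate could be left out. As the depth is unknown, marks too weak for the study's thresholds cannot be told apart from no mark.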
